A study of Mus musculus with 32 samples.

Results

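Mouse liver under short light (SL) was compared with mouse liver under long light (LL) at zeitgeber time (ZT) 0, where ZT is time counted in hours on the light schedule. The comparison took every library whose title named SL or LL together with ZT0, 4 of each, which made 8 of the 32 libraries of the series, and it covered all expressed genes. SL ZT0 held 4 male C3H/HeNCrl mice under the short light photoperiod, and LL ZT0 held 4 male C3H/HeNCrl mice under the long light photoperiod. All 8 mice were fed a high fat diet (HFD), so no group on another diet stood beside them. C3H mice make melatonin and carry an allele of Pde6b that removes the rods of the retina, which is background to any use of them under different light schedules. The sources used here do not state the hours of light per day, the event that sets ZT0 or the age of the mice. The design gives 4 mice per photoperiod and time, so each library is taken as a separate mouse. The main p-values for genes below set a difference between groups against the spread between mice, estimated over all 32 libraries. The other 24 libraries, 4 mice per photoperiod at ZT6, ZT12 and ZT18, shared the fit and are used below to place the ZT0 difference in the day.

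The liver clock is a loop of transcription. CLOCK or NPAS2 pairs with BMAL1, the product of Arntl, and binds E-boxes to switch on the Per, Cry and Nr1d genes and the output factors Dbp, Tef and Hlf, whose products bind D-boxes. PER and CRY proteins then block the activators, while the REV-ERB repressors (Nr1d1, Nr1d2) and the ROR activators (such as Rora) compete for another element in genes such as Arntl. In liver this loop times lipid, sugar, bile acid and drug metabolism over the day, and feeding and temperature can shift it apart from the brain's clock.

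Promoter windows of 6 clock genes that moved at ZT0 are shown because they hold the elements just named. Each runs from 250 bases before to 50 bases after a RefSeq start of the gene on GRCm38.p6, 5′ to 3′ on the strand of the gene, and capitals mark motif matches. The motifs searched, on both strands, were CACGTG for the E-box, TTATGNAA for the D-box and TAGGTCA for the ROR and REV-ERB element. A gene can have several RefSeq starts, and the 10471 tested genes with a promoter had 13413 windows. The window shown for each gene is the first by coordinate that held the motif sought. The first base after that start counts as position 1. Per1 and Ciart, which rose in SL, hold E-boxes, Per1 at -166 together with a D-box at -24, and Ciart at -116, -58 and -44. Per1 spans chr11:69098699-69098998 on the plus strand and Ciart chr3:95882179-95882478 on the minus strand.
Per1: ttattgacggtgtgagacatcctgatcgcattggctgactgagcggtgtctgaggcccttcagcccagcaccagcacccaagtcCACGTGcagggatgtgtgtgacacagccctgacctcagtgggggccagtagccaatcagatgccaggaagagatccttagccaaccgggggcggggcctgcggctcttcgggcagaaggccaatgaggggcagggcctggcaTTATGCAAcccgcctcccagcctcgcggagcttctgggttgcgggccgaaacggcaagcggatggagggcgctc
Ciart: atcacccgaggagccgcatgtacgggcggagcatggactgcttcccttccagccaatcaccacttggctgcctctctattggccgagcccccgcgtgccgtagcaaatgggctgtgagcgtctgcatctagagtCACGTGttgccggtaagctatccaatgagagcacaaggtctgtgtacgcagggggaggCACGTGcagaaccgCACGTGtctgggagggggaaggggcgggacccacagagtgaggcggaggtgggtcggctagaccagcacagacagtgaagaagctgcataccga

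Per3, which rose, holds D-boxes at -205 and -158 (chr4:151044616-151044915, minus strand). Arntl and Nfil3, which fell, hold the ROR and REV-ERB element, Arntl at 31 (chr7:113207261-113207560, plus strand) and Nfil3 at -12 as the reverse complement (chr13:52980990-52981289, minus strand). Cry1 also holds an E-box, at -60 (chr10:85185005-85185304, minus strand), and fell.
Per3: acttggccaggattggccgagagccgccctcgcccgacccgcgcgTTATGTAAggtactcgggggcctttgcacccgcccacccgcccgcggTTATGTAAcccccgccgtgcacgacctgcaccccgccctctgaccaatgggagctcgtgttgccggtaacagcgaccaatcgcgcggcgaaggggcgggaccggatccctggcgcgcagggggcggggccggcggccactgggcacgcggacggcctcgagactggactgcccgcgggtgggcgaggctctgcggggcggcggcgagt
Arntl: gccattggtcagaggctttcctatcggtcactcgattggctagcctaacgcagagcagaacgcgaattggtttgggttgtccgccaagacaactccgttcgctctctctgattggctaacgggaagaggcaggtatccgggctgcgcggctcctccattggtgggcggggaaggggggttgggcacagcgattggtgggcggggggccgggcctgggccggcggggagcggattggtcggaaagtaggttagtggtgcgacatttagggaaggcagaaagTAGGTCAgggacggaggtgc
Nfil3: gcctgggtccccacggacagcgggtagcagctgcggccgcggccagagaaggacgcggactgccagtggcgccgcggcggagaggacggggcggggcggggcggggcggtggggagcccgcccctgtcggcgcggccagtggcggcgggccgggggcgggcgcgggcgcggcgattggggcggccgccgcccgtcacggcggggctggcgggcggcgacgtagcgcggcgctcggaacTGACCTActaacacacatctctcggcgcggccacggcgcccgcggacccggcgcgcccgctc
Cry1: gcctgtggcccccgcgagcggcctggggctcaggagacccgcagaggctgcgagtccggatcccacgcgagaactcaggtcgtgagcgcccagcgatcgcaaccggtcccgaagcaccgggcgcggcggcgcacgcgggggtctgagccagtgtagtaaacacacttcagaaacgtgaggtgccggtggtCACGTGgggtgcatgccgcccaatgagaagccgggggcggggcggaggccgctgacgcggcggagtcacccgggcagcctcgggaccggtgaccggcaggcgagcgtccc

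Total counts ranged from 9781121 to 19060051 reads in the SL ZT0 libraries and from 9095615 to 16652750 in the LL ZT0 libraries (exact two-sided permutation p = 0.971, where 4 against 4 can give no p below 0.0286). Between 19687 and 21444 genes had a read in the SL libraries and between 19761 and 21148 in the LL libraries. Hepatocyte transcripts dominated every library, as the label liver requires, with the albumin gene Alb at 87200 to 95800 in the SL libraries and 78200 to 101000 in the LL libraries, in CPM (a gene's count scaled to the size of its library). On the first principal component of these 8 libraries, which held 33.5% of the variance, the SL libraries lay at -30.7 to -16.2 and the LL libraries at 20.2 to 28.8. On the second, which held 16.8%, the SL mice spread from -28.4 to 31.7, and LL mouse 2 lay at 19.3 against -3.83 to -3.66 for the other LL mice. LL mouse 2 therefore stood apart from its group. Its chi-square per degree of freedom against the other LL libraries was 19 to 27.5, against 7.40 to 8.35 among those 3, and no pair of libraries agreed within counting noise. It also held 124 CPM of 10 skeletal muscle transcripts, against 0.962 to 21.7 CPM in the SL mice and 0.797 to 8.51 CPM in the other LL mice. Of the pancreas markers, Pnlip reached 5.84 CPM and Cpa1 4.52 CPM in LL mouse 4, both at 0 in the other 7 libraries. Prss2 was also highest in LL mouse 4, at 3.85 CPM, against at most 0.0732 CPM in the SL mice. Cela1 had reads in all 8 libraries, at 60 to 77.8 CPM in SL and 51.1 to 58.6 CPM in LL. Mitochondrially encoded reads made up 3.56 ± 0.18% of counts in SL and 4.07 ± 0.30% in LL (SD, n = 4 each, exact two-sided permutation p = 0.0571). The part of these differences in the results below was not tested, and without LL mouse 2 the main count of 1596 genes given next was 1301.

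At ZT0 clock genes were among the largest differences between SL and LL livers, and in them repressor and output genes were mostly higher and activator genes lower in SL. Genes of fatty acid and cholesterol synthesis were mostly higher in SL by smaller amounts, while cytosolic ribosomal protein genes and nuclear-encoded respiratory chain genes gave no calls. Of 14456 genes tested, 1596 were called, which is 11%, where called means an adjusted p under 0.05 in edgeR's quasi-likelihood test with Benjamini-Hochberg adjustment over all tested genes. Of these, 878 were higher in SL (6.07% of tested genes) and 718 were lower (4.97%). At an unadjusted p under 0.05 there were 3411. The median difference over all tested genes was 0.00 on the log2 scale. Differences are given throughout as log2 of SL over LL with their SE, from 4 mice per group.

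Most of the changes were small. The median size among called genes was 0.57 on the log2 scale, 0.51 for those that rose and -0.62 for those that fell. A log2 size over 1 was reached by 354 called genes (167 higher and 187 lower in SL), a size over 2 by 73 (36 and 37) and a size over 3 by 23 (13 and 10). All 4 SL values lay outside the range of the 4 LL values in 1351 of the 1596 called genes and in 2415 tested genes (16.7% of all tested genes). The SL mice lay above the LL mice in 8.94% of tested genes and below them in 7.76%. The share called grew with the level of the gene, at 18.2% of the 3614 genes with the highest mean level (over 36.3 CPM) and 4.76% of the 3614 with the lowest (0.145 to 2.54 CPM). The median SE of the difference was 0.10 in these high genes and 0.35 in the low genes, and the median size of the called differences was 0.45 and 1.32 in the same order. The share of all tested genes set beside the gene lists below was not matched to the level of their members.

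**Figure D1:**
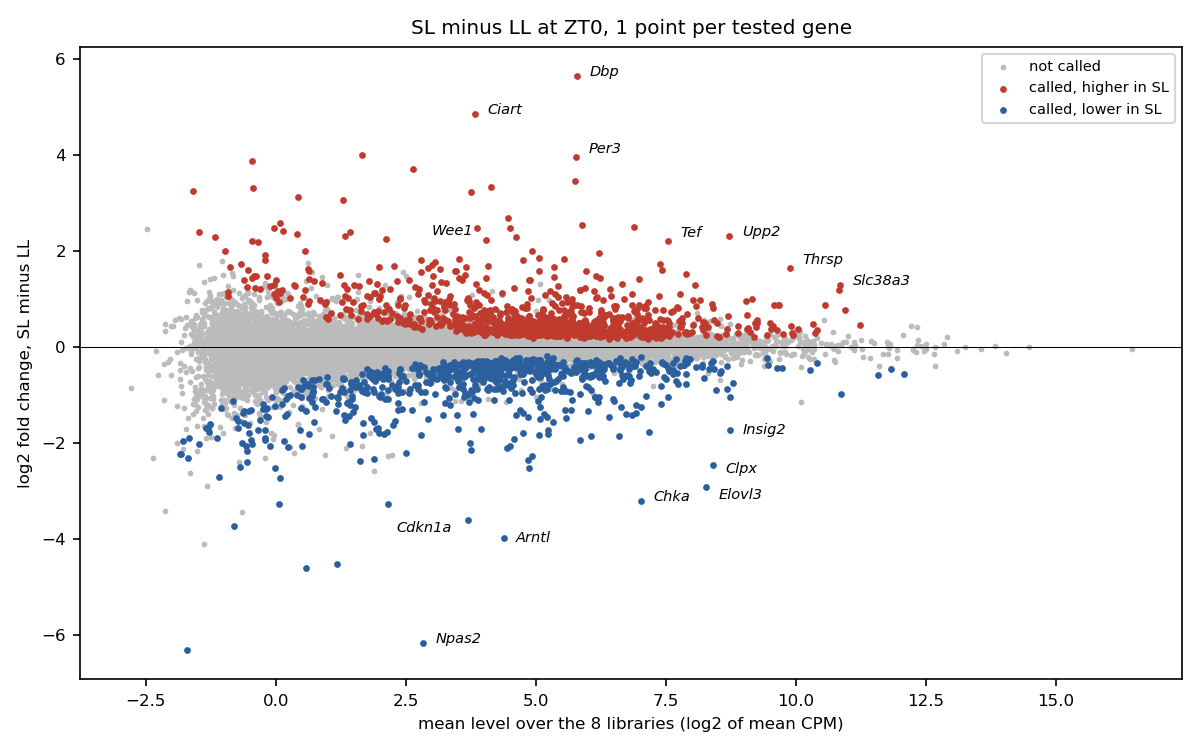
Log2 fold change of SL minus LL at ZT0 (y axis) against the mean level over the 8 libraries (x axis, log2 of mean CPM), 1 point per tested gene; red points were called higher in SL (878 genes), blue points called lower (718), grey points not called. Clock genes such as Dbp at 5.65 and Npas2 at -6.16 lie at the outer edge, and the cloud of the other genes centres on 0.

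Among the core clock activators, 4 of 5 fell in SL and 0 rose (80% called, beside 11% of all tested genes), with a list median of -1.47. Arntl, which codes for BMAL1, stood at 2.94, 2.66, 2.78 and 1.42 CPM in the SL mice and 36.7, 39.7, 42.7 and 38 CPM in the LL mice. Every SL mouse lay below every LL mouse, and the fold change was -3.96 ± 0.29 (edgeR quasi-likelihood adjusted p = 5.72e-11). Npas2, which codes for a partner of BMAL1, was close to silent in SL, at 0.267, 0.102, 0.22 and 0.0945 CPM in the SL mice and 19.9, 9.13, 12.4 and 14.6 CPM in the LL mice. Its difference of -6.16 ± 0.53 was the largest fall of any named gene with a mean of at least 1 CPM, and it rests on few reads in SL. Clock, the other partner, fell by a smaller amount (-1.47 ± 0.20), at 22.2, 29, 30.3 and 20.4 CPM in the SL mice and 74.4, 62, 74 and 72.2 CPM in the LL mice. Rora was not called (-0.23 ± 0.20, edgeR quasi-likelihood adjusted p = 0.538), at 71.2 ± 9.2 CPM in SL mice and 83.5 ± 7.85 CPM in LL mice (SD, n = 4 each), and its groups overlapped.

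Of the 10 core clock repressors, 9 rose in SL and Cry1 fell (100% called, beside 11% of all tested genes), with a list median of 2.42. Per3 stood at 112, 114, 91.5 and 93.1 CPM in the SL mice and 5.43, 6.03, 8.68 and 6.77 CPM in the LL mice (3.95 ± 0.28, edgeR quasi-likelihood adjusted p = 2.62e-11). Per1, which in many tissues also answers directly to hormones and light cues, was at 40.3, 58.7, 36.3 and 28.5 CPM in the SL mice and 7.92, 10.7, 5.17 and 8.96 CPM in the LL mice (2.29 ± 0.29). Per2 moved less (1.18 ± 0.19), at 71.9, 85.1, 89 and 74.9 CPM in the SL mice and 36.9, 37.9, 27.8 and 38 CPM in the LL mice. For these 3 Period genes the SL and LL mice did not overlap, and the gap was widest in Per3.

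Cry1, whose protein represses late in the loop, went the other way from its relative Cry2. Cry1 was at 9.19, 6.75, 10.3 and 8.79 CPM in the SL mice and 35.1, 40.1, 31 and 41.3 CPM in the LL mice (-2.07 ± 0.15, edgeR quasi-likelihood adjusted p = 3.75e-11), and Cry2 at 63.7 ± 7.11 CPM in SL mice and 37.8 ± 2.11 CPM in LL mice (0.75 ± 0.10). The genes of the REV-ERB repressors both rose. Nr1d1 stood at 121, 107, 64.6 and 103 CPM in the SL mice and 4.69, 14.1, 10.7 and 6.51 CPM in the LL mice (3.45 ± 0.32). Nr1d2 was at 102, 117, 94.6 and 95.1 CPM in the SL mice and 14.1, 23.1, 18.1 and 14.1 CPM in the LL mice (2.55 ± 0.19). The 4 LL mice differed among themselves by up to 3 times in Nr1d1 at these low levels, and the groups did not overlap in either gene.

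Ciart, which codes for a repressor of CLOCK and BMAL1 also known as CHRONO, was at 34, 34.7, 20.4 and 20.9 CPM in the SL mice and 0.513, 1.29, 0.769 and 1.06 CPM in the LL mice (4.86 ± 0.49). SL mice 1 and 2 lay above SL mice 3 and 4 in Ciart, and in the same way in the repressors Bhlhe40 and Bhlhe41, which code for the DEC proteins. Bhlhe41 was at 8.07, 10.1, 1.68 and 4.06 CPM in the SL mice and 0.44, 0.234, 0.22 and 0.531 CPM in the LL mice (4.01 ± 0.48). Bhlhe40 was at 261, 348, 130 and 162 CPM in the SL mice and 81.9, 113, 88.8 and 145 CPM in the LL mice (1.07 ± 0.27). For Bhlhe40 the groups overlapped, with SL mouse 3 below LL mouse 4, and without SL mouse 2 the difference was 0.78 and no longer called (edgeR quasi-likelihood adjusted p = 0.0609).

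Clock output factors were mostly higher in SL, with 6 of 8 called higher, 1 lower and a list median of 1.16. The share called was 87.5%, beside 11% of all tested genes. Dbp, which codes for a D-box activator of liver enzymes, had the largest rise of any named gene, at 133, 118, 80.8 and 104 CPM in the SL mice and 2.2, 1.87, 3.08 and 1.79 CPM in the LL mice (5.65 ± 0.44, edgeR quasi-likelihood adjusted p = 1.27e-10). Each SL mouse had more than 20 times the level of any LL mouse. Its relative Tef was at 310, 355, 269 and 294 CPM in the SL mice and 56, 70.8, 68.8 and 68.8 CPM in the LL mice (2.21 ± 0.14). Hlf was at 81.5, 132, 79.8 and 89.5 CPM in the SL mice and 69.4, 59.1, 56.1 and 63.5 CPM in the LL mice (0.62 ± 0.15). Nfil3, which codes for the repressor that competes with these 3 at the D-box, fell, at 19.7, 14.1, 22.5 and 22.9 CPM in the SL mice and 51.3, 54.5, 61.9 and 51.4 CPM in the LL mice (-1.46 ± 0.14). The D-box activators and their repressor thus stood at opposite levels, with no overlap between groups in any of the 4 genes.

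Usp2, a deubiquitinase gene that follows the clock in many tissues, was at 32.1, 43.2, 26.8 and 26 CPM in the SL mice and 2.35, 4.62, 2.75 and 2.72 CPM in the LL mice (3.33 ± 0.30). Klf15, which codes for a regulator of amino acid and glucose metabolism, rose by less (0.86 ± 0.12), at 178 ± 9.6 CPM in SL mice and 98 ± 12.8 CPM in LL mice. Klf10, a transcription factor gene, was uneven among SL mice, at 61.4, 129, 18.6 and 31.8 CPM in the SL mice, against 22.2, 23.9, 18.4 and 22.8 CPM in the LL mice. Its groups overlapped and its difference of 1.45 ± 0.40 was lost without SL mouse 2 (0.78, edgeR quasi-likelihood adjusted p = 0.189). It was also not called by limma-voom (adjusted p = 0.104), by limma on the authors' log2 values (0.0718) or with the 8 ZT0 libraries alone (0.0733). Klf9 was not called (0.47 ± 0.20).

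**Figure D2:**
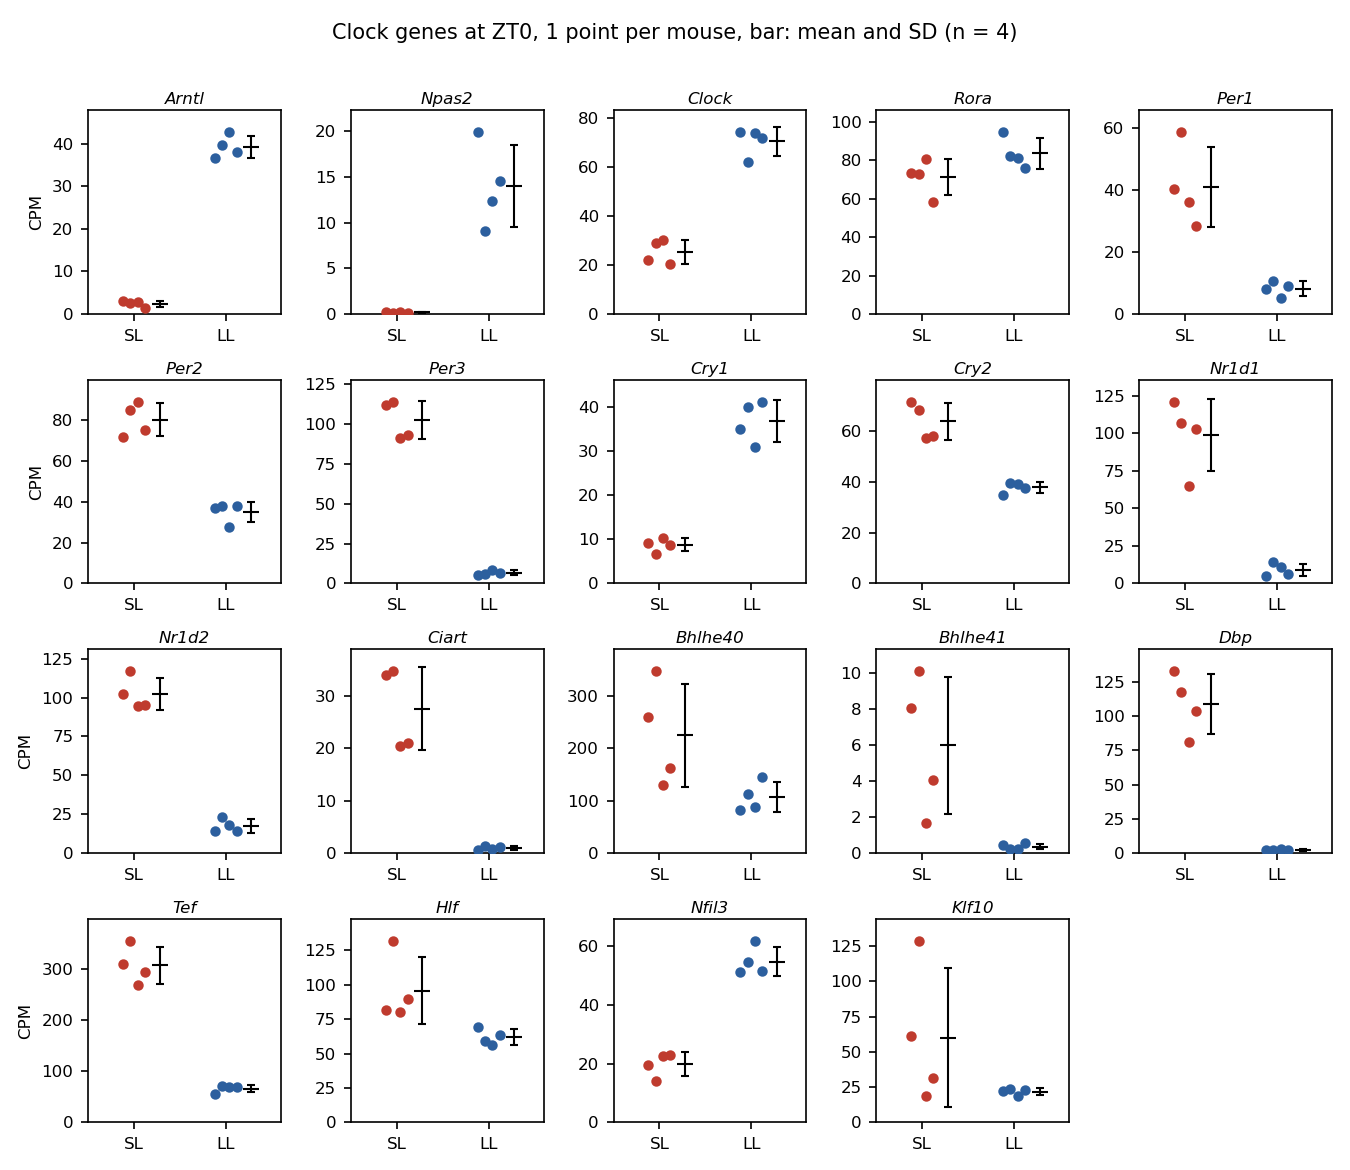
Level (CPM, y axis from 0) of 19 clock genes at ZT0 in the 4 SL mice (red, left) and the 4 LL mice (blue, right), with mean and SD in black. Arntl, Npas2, Clock, Cry1 and Nfil3 lie lower in SL without overlap, Rora, Bhlhe40 and Klf10 overlap, and the other 11 lie higher in SL without overlap, among them Dbp at 80.8 to 133 CPM against 1.79 to 3.08 CPM in LL.

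Counting reads alone cannot place every read in these loci. The counted Dbp overlaps Sphk2 and Nr1d1 overlaps Thra on the opposite strand, Usp2 overlaps Gm49380, and Camta1 spans Per3 on the same strand. The kit keeps strand, but no source used here states the strand setting of the counting, so reads of such pairs are uncertain. On GRCm38 with GENCODE M21 bounds, Tef (ENSMUSG00000022389) lies on chromosome 15 from 81802421 to 81826863, Cry2 on chromosome 2 from 92403646 to 92434043, Clock on chromosome 5 from 76209868 to 76304792 and Nfil3 on chromosome 13 from 52967209 to 52981073. These 4 genes code for protein, and their counts sum over exons.

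Outside the clock lists, the largest rises with a mean of at least 1 CPM included genes of cell death, signalling and nucleotide metabolism. Upp2, a liver uridine phosphorylase gene, was at 764, 786, 610 and 656 CPM in the SL mice and 115, 140, 169 and 141 CPM in the LL mice (2.32 ± 0.20, edgeR quasi-likelihood adjusted p = 8.05e-10). Bmf, which codes for a BH3-only promoter of apoptosis, was at 58.9, 50.3, 14.9 and 28.7 CPM in the SL mice and 4.11, 5.85, 8.57 and 5.78 CPM in the LL mice (2.68 ± 0.46), with SL mice 1 and 2 again above SL mice 3 and 4. Noct, which codes for nocturnin, was at 33.3, 64.1, 41.5 and 15.9 CPM in the SL mice and 7.04, 8.08, 2.86 and 8.7 CPM in the LL mice (2.49 ± 0.44). These 3 genes showed no overlap between groups. Rgs16, a regulator of G protein signalling, rose by 2.51 ± 0.52, but SL mouse 2 stood alone at 447 CPM, against 111 to 134 CPM in the other SL mice and 20.2 to 54.1 CPM in the LL mice.

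At lower levels, rises were found in Cyp2g1 (2.41 ± 0.35, 4.51 ± 1.24 CPM in SL mice and 0.843 ± 0.353 CPM in LL mice), a cytochrome P450 gene, and Azin2 (2.32 ± 0.30, 4.22 ± 0.724 CPM in SL mice and 0.832 ± 0.374 CPM in LL mice), which codes for an inhibitor of ornithine decarboxylase antizyme. Ppp1r3g, which codes for a glycogen-targeting subunit of protein phosphatase 1, was at 1.76, 2.76, 3.22 and 0.945 CPM in the SL mice and 0.513, 0, 1.21 and 0.266 CPM in the LL mice. Its difference of 2.36 ± 0.72 was not called when any of SL mouse 2, SL mouse 3, LL mouse 1, LL mouse 2 or LL mouse 4 was left out (1.84 to 2.48).

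Large falls outside the clock included genes of a cell cycle inhibitor and of lipid enzymes. Cdkn1a, which codes for the inhibitor p21, was at 1.34, 1.94, 1.83 and 3.02 CPM in the SL mice and 24.6, 20.7, 24.4 and 25.6 CPM in the LL mice (-3.6 ± 0.31). Chka, which codes for the choline kinase that opens phosphatidylcholine synthesis, was at 27.6, 26.5, 25.6 and 21.9 CPM in the SL mice and 240, 174, 280 and 239 CPM in the LL mice (-3.2 ± 0.23, edgeR quasi-likelihood adjusted p = 2.89e-11). Elovl3, which codes for an elongase of very long chain fatty acids, was at 110, 77, 64.3 and 41.5 CPM in the SL mice and 484, 672, 493 and 550 CPM in the LL mice (-2.9 ± 0.23). In each of these 3 genes the lowest LL mouse stood at more than 4 times the highest SL mouse.

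Clpx, which codes for the unfoldase of a mitochondrial protease, was at 119, 111, 91.4 and 98 CPM in the SL mice and 609, 505, 590 and 590 CPM in the LL mice (-2.45 ± 0.18). Ppard, a nuclear receptor gene for fatty acids, was at 9.14, 10.2, 9.08 and 9.54 CPM in the SL mice and 50.9, 44.8, 39.6 and 57.7 CPM in the LL mice (-2.35 ± 0.16, edgeR quasi-likelihood adjusted p = 1.49e-11). The SL mice were tightly grouped in both genes. Dnmt3b, a DNA methyltransferase gene, was at 2.19, 2.15, 1.83 and 1.79 CPM in the SL mice and 8.14, 9.13, 10.6 and 9.56 CPM in the LL mice (-2.21 ± 0.18). Zbtb16, which codes for the zinc finger factor PLZF, was at 4.81, 4.09, 6.23 and 4.82 CPM in the SL mice and 19.2, 21.6, 21.1 and 26.7 CPM in the LL mice (-2.14 ± 0.35).

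Other large falls, Pitx3 among the largest, were in low or uneven genes. Pitx3, a homeobox gene that overlaps Elovl3 by 10 bases on the opposite strand, was at 0.214, 0, 0.293 and 0.189 CPM in the SL mice and 5.43, 5.85, 1.76 and 4.45 CPM in the LL mice (-4.52 ± 0.58), so its reads are uncertain. Igfbp1, which codes for an IGF-binding protein that insulin holds down, was at 6.79, 4.4, 22 and 7.84 CPM in the SL mice and 38.4, 53.3, 93.8 and 16.4 CPM in the LL mice (-2.26 ± 0.53), and its groups overlapped, with SL mouse 3 above LL mouse 4. Mboat1 (-2.73 ± 0.42), Lonrf3 (-2.33 ± 0.32) and Clic3 (-2.38 ± 0.39) had means of 0.289, 1.19 and 0.989 CPM in SL, against 1.83, 6.26 and 5.20 CPM in LL. Clic3 overlaps Paxx on the opposite strand.

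Other genes reached small p-values with moderate differences and little spread between mice. Ncoa5, a nuclear receptor coactivator gene, was at 11.6, 12.3, 11.9 and 11.3 CPM in the SL mice and 26.2, 23.9, 24.1 and 26.4 CPM in the LL mice (-1.09 ± 0.08, edgeR quasi-likelihood adjusted p = 6.56e-11). Nedd4l, a ubiquitin ligase gene, was at 36.9 ± 2.86 CPM in SL mice and 92.4 ± 5.07 CPM in LL mice (-1.32 ± 0.10). Dtx4, also a ubiquitin ligase gene, was at 10 ± 0.824 CPM in SL mice and 37.8 ± 4.53 CPM in LL mice (-1.92 ± 0.16). Slc38a3, which codes for the main glutamine carrier of hepatocytes, was at 2977, 2756, 2344 and 2437 CPM in the SL mice and 968, 1235, 1048 and 1005 CPM in the LL mice (1.3 ± 0.11). It was the most abundant of these 4 and the only one that rose. Asap2 (-2 ± 0.18) and Pnkd (-1.2 ± 0.09) fell, and both overlap other coding genes on the opposite strand.

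Genes of fatty acid and triglyceride synthesis were mostly higher in SL. Of 22 tested, 12 rose, Elovl3 and Agpat2 fell, and 8 were not called, with a list median of 0.74, against 0.00 over all tested genes. The share called was 63.6%, beside 11% of all tested genes. Thrsp, which codes for a regulator of lipogenesis, was at 1626, 1383, 1881 and 869 CPM in the SL mice and 471, 369, 497 and 493 CPM in the LL mice (1.65 ± 0.23). Srebf1, the gene of the lipogenic factor SREBP1, was at 821, 875, 666 and 689 CPM in the SL mice and 438, 380, 285 and 413 CPM in the LL mice (1.01 ± 0.16), and it overlaps the end of Rai1 on the opposite strand. Both genes were higher in each SL mouse than in any LL mouse.

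The enzymes moved less evenly. Fasn, which codes for fatty acid synthase, was at 2701, 2768, 3373 and 1268 CPM in the SL mice and 1532, 858, 916 and 1110 CPM in the LL mice (1.2 ± 0.30), so SL mouse 4 lay within the LL range. Fads2, a fatty acid desaturase gene, was at 2619, 2264, 3049 and 2028 CPM in the SL mice and 1494, 1387, 1587 and 1381 CPM in the LL mice (0.77 ± 0.14). Dgat2, which codes for the last enzyme of triglyceride synthesis, was at 639, 778, 677 and 681 CPM in the SL mice and 506, 477, 459 and 530 CPM in the LL mice (0.49 ± 0.08). Neither gene overlapped between groups. SL mouse 4 was also the lowest SL mouse in Thrsp. Among the further risers, picked out after their values were seen, Pnpla3 stood at 18 ± 6.67 CPM in SL mice and 5.19 ± 1.9 CPM in LL mice (1.83 ± 0.43). Lpin2 stood at 346 ± 86.1 CPM in SL mice and 175 ± 41.5 CPM in LL mice (0.99 ± 0.18). Acss2 was at 271 ± 47.5 CPM in SL mice and 155 ± 25.7 CPM in LL mice (0.81 ± 0.14). Agpat2, an acyltransferase gene of the same pathway, was at 209 ± 21.8 CPM in SL mice and 257 ± 17.2 CPM in LL mice (-0.3 ± 0.09), and it was not called when any of SL mouse 1, SL mouse 2, LL mouse 1 or LL mouse 4 was left out (-0.29 to -0.24). Without SL mouse 1, 9 of the 22 genes were called in place of 14.

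Cholesterol synthesis and uptake showed the same balance. Of 25 genes tested, 14 rose and Insig2 fell (60% called, beside 11% of all tested genes), with a list median of 0.52. Insig2, which codes for the protein that holds SREBP in the endoplasmic reticulum, was at 192, 168, 228 and 199 CPM in the SL mice and 715, 589, 664 and 649 CPM in the LL mice (-1.73 ± 0.16, edgeR quasi-likelihood adjusted p = 4.64e-09). This was the largest change of the list and opposite in sign to the other 14 called genes. Nsdhl was at 134 ± 16 CPM in SL mice and 85.2 ± 7.06 CPM in LL mice (0.66 ± 0.10). Hsd17b7 was at 148 ± 24 CPM in SL mice and 88.3 ± 12.4 CPM in LL mice (0.75 ± 0.14). Both code for late enzymes of the pathway. For Nsdhl and Hsd17b7 every SL mouse lay above every LL mouse.

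Among 19 genes of bile acid synthesis and sterol transport, 4 rose and 1 fell (median 0.12). Abcg8 was at 150 ± 19.6 CPM in SL mice and 81.8 ± 11.7 CPM in LL mice (0.88 ± 0.12). Abcg5 was at 117 ± 5.75 CPM in SL mice and 67.2 ± 8.6 CPM in LL mice (0.8 ± 0.12). These genes code for the subunits of a sterol exporter and overlap each other on opposite strands. Abcc2, which codes for an exporter of conjugates into bile, was at 861, 833, 852 and 886 CPM in the SL mice and 610, 590, 632 and 589 CPM in the LL mice (0.5 ± 0.10), with no overlap. The share called in this list, 5 of 19, stood beside 11% of all tested genes.

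Of 26 genes of fatty acid oxidation and ketogenesis, 4 rose and 2 fell (23.1% called, beside 11% of all tested genes), with a median of 0.05. Cpt1a, which codes for the gate of mitochondrial fat uptake, was at 669, 746, 812 and 682 CPM in the SL mice and 468, 484, 542 and 485 CPM in the LL mice (0.56 ± 0.12). The ketone body enzyme gene Bdh1 was at 463 ± 33 CPM in SL mice and 359 ± 34.1 CPM in LL mice (0.37 ± 0.09). Pdk4, which codes for a kinase that shuts off pyruvate oxidation, fell, at 4.6, 3.17, 17 and 7.46 CPM in the SL mice and 38.5, 22.6, 60 and 20.5 CPM in the LL mice (-2.1 ± 0.45), and its SL mouse 3 was close to the lowest LL mice. The other 3 called genes were acyl-CoA thioesterases of the Acot cluster, whose near-identical copies can share reads, so no values are given for them. Among 19 genes of lipid droplets and lipases, 2 rose and 3 fell (26.3% called, median 0.09), a count of 5 that was 2 without SL mouse 1 and 3 without LL mouse 1 or LL mouse 4. Plin5, which codes for a droplet coat protein of oxidative tissues, was at 25.8, 32.2, 34.7 and 22.8 CPM in the SL mice and 47.7, 55.8, 49.5 and 60.6 CPM in the LL mice (-0.89 ± 0.14). Pnpla2, which codes for adipose triglyceride lipase, was at 51.1 ± 3.49 CPM in SL mice and 35.4 ± 2.65 CPM in LL mice (0.53 ± 0.12).

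Of 16 genes that make glucose or mark fasting, 4 were called higher in SL and 1, Igfbp1, lower (median 0.21). The share called was 31.2%, beside 11% of all tested genes. Sds, a serine dehydratase gene, was at 232, 173, 193 and 138 CPM in the SL mice and 54.3, 92, 56.7 and 71.5 CPM in the LL mice (1.42 ± 0.19). Foxo3, which codes for an insulin-restrained transcription factor, was at 74.7, 63.5, 62.7 and 65.7 CPM in the SL mice and 36.5, 41.6, 36.5 and 34.4 CPM in the LL mice (0.84 ± 0.10). Pck1, which codes for the first committed enzyme of gluconeogenesis, was at 1902, 1902, 2356 and 1705 CPM in the SL mice and 839, 1431, 1214 and 779 CPM in the LL mice (0.88 ± 0.23). In these 3 genes the groups did not overlap, and LL mouse 2 was the highest LL mouse in each. Sds overlaps Plbd2 on the opposite strand.

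Glycogen genes moved in opposite directions. Of 19 genes that take up glucose, burn it or store it as glycogen, 4 rose and 1 fell (26.3% called, beside 11% of all tested genes). The median was 0.16, and the count of 5 was 3 without SL mouse 2, LL mouse 2 or LL mouse 4. Gys2, which codes for liver glycogen synthase, was at 328, 359, 246 and 267 CPM in the SL mice and 150, 118, 150 and 140 CPM in the LL mice (1.1 ± 0.12, edgeR quasi-likelihood adjusted p = 4.3e-08). Ppp1r3c, which codes for a subunit that draws protein phosphatase 1 to glycogen, fell, at 82, 104, 32.9 and 45.6 CPM in the SL mice and 222, 210, 205 and 265 CPM in the LL mice (-1.77 ± 0.24). Pfkfb3, which codes for an activator of glycolysis, was at 15.6, 37.1, 12.7 and 11.4 CPM in the SL mice and 4.69, 7.43, 5.94 and 5.78 CPM in the LL mice (1.66 ± 0.39), highest in SL mouse 2. None of these 3 genes overlapped between groups.

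**Figure D3:**
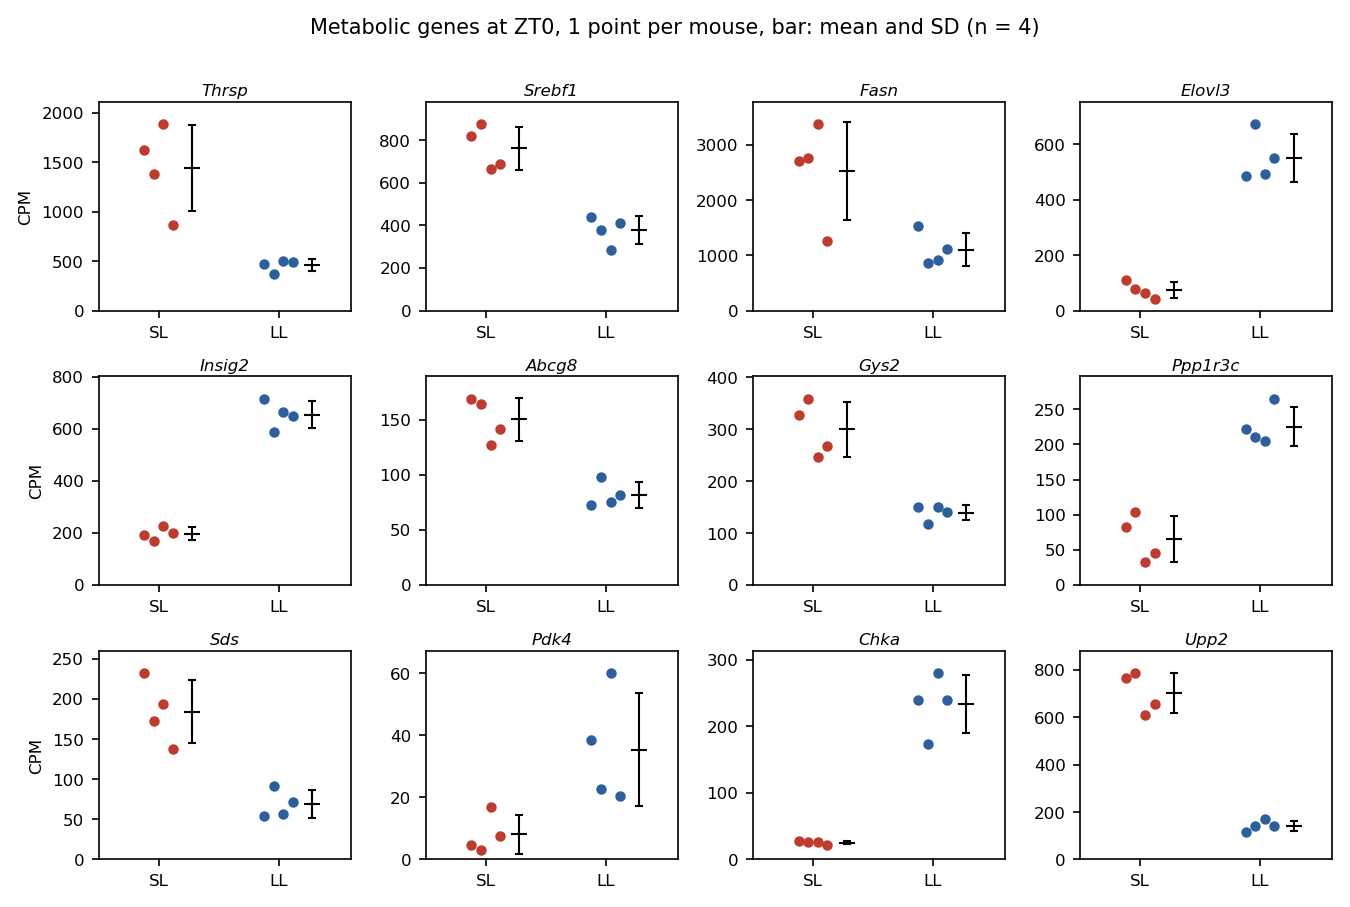
Level (CPM, y axis from 0) of 12 metabolic genes at ZT0 in the 4 SL mice (red, left) and the 4 LL mice (blue, right), with mean and SD in black. Thrsp, Srebf1, Gys2 and Upp2 lie higher in SL without overlap, Elovl3, Insig2, Ppp1r3c and Chka lie lower without overlap, and Fasn overlaps through SL mouse 4 at 1268 CPM.

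Amino acid breakdown and the urea cycle had 2 genes higher and 2 lower of 24 (16.7% called, beside 11% of all tested genes; median 0.01). Gldc, which codes for the glycine-splitting enzyme of mitochondria, was at 299, 252, 319 and 284 CPM in the SL mice and 577, 491, 523 and 535 CPM in the LL mice (-0.88 ± 0.13). Kynu, a kynureninase gene, was at 201 ± 16.8 CPM in SL mice and 259 ± 7.47 CPM in LL mice (-0.37 ± 0.08). Both fell without overlap between groups. Prodh, a proline dehydrogenase gene that overlaps Dgcr6, was at 270 ± 26.6 CPM in SL mice and 178 ± 19.2 CPM in LL mice (0.6 ± 0.12). Prodh rose, again without overlap.

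Solute carriers of hepatocytes moved more often, with 10 higher and 4 lower of 25 (56% called, beside 11% of all tested genes). The median was 0.27, and 9 were called in all without SL mouse 2. Slc45a3, which codes for a sugar carrier, was at 14.6, 21.6, 27.3 and 19 CPM in the SL mice and 63.3, 50.5, 63.5 and 63.5 CPM in the LL mice (-1.55 ± 0.14). Slc16a1, which codes for a monocarboxylate carrier, was at 46.9 ± 3.12 CPM in SL mice and 86.6 ± 14.8 CPM in LL mice (-0.89 ± 0.13). Both fell, and Slc45a3 at its highest in SL stood below its lowest value in LL. Slc46a3 was at 86.7 ± 6.36 CPM in SL mice and 62.4 ± 2.62 CPM in LL mice (0.47 ± 0.09). The glycine carrier gene Slc6a9, which overlaps other coding genes, was at 17.8 ± 1.8 CPM in SL mice and 10.2 ± 1.43 CPM in LL mice (0.81 ± 0.17). Slc46a3 and Slc6a9 rose, each without overlap. Slc7a2, which codes for a carrier of arginine and lysine and was picked out after its values were seen, was at 801, 740, 621 and 641 CPM in the SL mice and 332, 486, 302 and 317 CPM in the LL mice (0.96 ± 0.20).

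Of 25 genes of NAD, uridine and 1-carbon metabolism, 6 rose and 4 fell (40% called, beside 11% of all tested genes; median -0.02). Nampt, which codes for the rate-limiting enzyme of NAD salvage and is a known clock target, was at 77.3, 99.6, 103 and 110 CPM in the SL mice and 44.2, 46.9, 50.3 and 46.6 CPM in the LL mice (1.05 ± 0.14). Bhmt, whose enzyme remethylates homocysteine from betaine, was at 1245, 1060, 1599 and 1104 CPM in the SL mice and 2414, 2018, 2762 and 2684 CPM in the LL mice (-0.98 ± 0.15). Neither overlapped between groups. Nmrk1, which codes for a kinase that makes NAD from nicotinamide riboside and was picked out after its values were seen, was at 15.4, 22.8, 26.9 and 25.2 CPM in the SL mice and 9.61, 9.66, 13 and 10.4 CPM in the LL mice (1.09 ± 0.18).

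Drug-metabolizing P450 genes and their regulators had 5 higher and 2 lower of 27 (25.9% called, beside 11% of all tested genes). The median was -0.14, and the called total was 4 without LL mouse 4. Por, which codes for the reductase that feeds electrons to microsomal P450 enzymes, was at 249, 269, 270 and 250 CPM in the SL mice and 65.1, 122, 77 and 75.3 CPM in the LL mice (1.61 ± 0.17). Cyp1a2 was at 507 ± 106 CPM in SL mice and 324 ± 61.8 CPM in LL mice (0.65 ± 0.16), and its lowest SL mouse, at 392 CPM, lay below LL mouse 2, at 413 CPM. Cyp2a5 (1.29 ± 0.20) and Cyp2c37 (-0.66 ± 0.16) were also called, but belong to families of near-identical genes that can share reads. Conjugation and antioxidant enzymes had 3 higher and 4 lower of 27 (25.9% called, median 0.06), or 3 called in all without SL mouse 1 and 4 without LL mouse 2. Gclc, which codes for the rate-limiting enzyme of glutathione synthesis, fell, at 227, 220, 245 and 299 CPM in the SL mice and 550, 336, 491 and 475 CPM in the LL mice (-0.9 ± 0.15).

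Acute phase genes, which inflammation raises in liver, were called lower in 6 of 24 cases and higher in 0 (median -0.27). The share called was 25%, beside 11% of all tested genes and 18.2% of the 3614 genes with the highest mean level. The count of 6 was 4 to 6 with single libraries left out. Lbp, which codes for the lipopolysaccharide-binding protein, was at 51.5, 58.6, 50.3 and 72.4 CPM in the SL mice and 102, 167, 109 and 110 CPM in the LL mice (-1.07 ± 0.15). Crp, the C-reactive protein gene, was at 254, 286, 285 and 260 CPM in the SL mice and 341, 408, 377 and 369 CPM in the LL mice (-0.46 ± 0.08). The fibrinogen genes Fgg and Fga were among the most abundant transcripts that changed, at 2468 ± 458 CPM in SL mice and 3678 ± 532 CPM in LL mice (-0.58 ± 0.11) and 3481 ± 652 CPM in SL mice and 5163 ± 1048 CPM in LL mice (-0.57 ± 0.12). LL mouse 2 was the highest LL mouse in all 4 genes. The third fibrinogen gene, Fgb, was at 3081 ± 556 CPM in SL mice and 4237 ± 648 CPM in LL mice (-0.46 ± 0.12) and was not called without LL mouse 2 (-0.36, edgeR quasi-likelihood adjusted p = 0.0560) or with the 8 ZT0 libraries alone (0.0621).

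Interferon response genes went the other way, with 4 of 20 higher in SL and 0 lower (20% called, beside 11% of all tested genes; median 0.30). This count rested on single mice and on the method. It was 7 without SL mouse 1, 2 without SL mouse 4, 2 by limma-voom and 2 with the 8 ZT0 libraries alone. Usp18, which codes for a protease that removes ISG15 from proteins, was at 8.18, 14.9, 10.5 and 18.8 CPM in the SL mice and 7.77, 5.68, 6.27 and 7.5 CPM in the LL mice (0.92 ± 0.20). Isg15 was at 8.34, 8.59, 9.89 and 15 CPM in the SL mice and 6.38, 5.03, 4.84 and 7.1 CPM in the LL mice (0.82 ± 0.20). Zbp1, which codes for a sensor of nucleic acids, was at 5.02, 9.1, 9.01 and 23 CPM in the SL mice and 3.3, 5.44, 5.39 and 4.38 CPM in the LL mice (1.29 ± 0.32), and without SL mouse 4 its difference was 0.72 (edgeR quasi-likelihood adjusted p = 0.108). Zbp1 was also not called by limma-voom (adjusted p = 0.0523) or with the 8 ZT0 libraries alone (0.0662). SL mouse 4 was the highest of all 8 mice in these 3 genes.

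Heat shock proteins had 3 lower and 0 higher of 19 (15.8% called, beside 11% of all tested genes; median -0.19), with Hspb1 at 1.5, 1.23, 1.39 and 1.04 CPM in the SL mice and 4.18, 3.8, 2.64 and 4.25 CPM in the LL mice (-1.51 ± 0.24). Hsp90aa1 was at 78.6, 69.6, 101 and 87.8 CPM in the SL mice and 139, 146, 143 and 136 CPM in the LL mice (-0.74 ± 0.17). Both code for chaperones, and neither overlapped between groups. The third, Hspa4l, was at 14.4 ± 3.24 CPM in SL mice and 22.4 ± 2.45 CPM in LL mice (-0.63 ± 0.17) and was not called without SL mouse 1 (-0.57, edgeR quasi-likelihood adjusted p = 0.0505).

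In the integrated stress response 2 of 14 rose and 1 fell (21.4% called, median -0.05), and Ddit4, which codes for an inhibitor of mTORC1, was at 6.63, 4.19, 6.96 and 6.52 CPM in the SL mice and 19.7, 15.1, 12.8 and 17.8 CPM in the LL mice (-1.42 ± 0.25). Trib3, which codes for a pseudokinase induced by amino acid shortage, was at 9.19, 13.4, 3.15 and 4.16 CPM in the SL mice and 2.27, 2.58, 1.98 and 2.26 CPM in the LL mice (1.69 ± 0.42). Both were called without overlap, and Trib3 was highest in SL mice 1 and 2. Herpud1, a gene of protein breakdown at the endoplasmic reticulum, was at 335 ± 33.3 CPM in SL mice and 219 ± 29.4 CPM in LL mice (0.61 ± 0.16). It was 1 of 2 called among 19 genes of ER chaperones and the unfolded protein response (median -0.09). That share, 10.5%, was close to the 11% of all tested genes. The count was 1 without SL mouse 3, SL mouse 4 or LL mouse 1 and 4 without LL mouse 3. Among 17 immediate early genes 1 rose and 2 fell (17.6% called, median -0.08), with the AP-1 gene Fosl2 at 3.74, 4.91, 4.54 and 3.78 CPM in the SL mice and 7.99, 7.55, 8.68 and 6.84 CPM in the LL mice (-0.87 ± 0.17). Ier5 was at 2.67, 2.15, 3.08 and 2.74 CPM in the SL mice and 6.38, 6.26, 3.96 and 5.05 CPM in the LL mice (-1.03 ± 0.21). Both fell in every SL mouse relative to every LL mouse. Among 13 glucocorticoid-induced genes, Per1 and Gadd45a rose and Zbtb16 and Cdkn1a fell (30.8% called, median 0.08). Gadd45a, a growth arrest gene, was at 7.21, 16.8, 7.25 and 10.4 CPM in the SL mice and 3.52, 2.81, 3.08 and 4.32 CPM in the LL mice (1.57 ± 0.28).

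In the cell cycle and DNA damage list 5 of 30 genes rose and 3 fell (26.7% called, beside 11% of all tested genes; median 0.04). Wee1, which codes for the kinase that holds back entry into mitosis and is a known clock target in liver, was at 23.9, 29.9, 27.5 and 27.5 CPM in the SL mice and 5.87, 4.74, 8.57 and 4.38 CPM in the LL mice (2.24 ± 0.22). Btg1, an antiproliferative gene, was at 23, 20.8, 31.3 and 33.9 CPM in the SL mice and 81.6, 47.8, 74.5 and 66.7 CPM in the LL mice (-1.31 ± 0.19), so it fell together with Cdkn1a. The groups did not overlap in either. The cyclin genes were split, and those named here were picked out after their values were seen. Ccne1, which codes for a cyclin of entry into S phase, was at 2.35, 1.84, 2.49 and 2.93 CPM in the SL mice and 1.03, 0.995, 0.879 and 0.797 CPM in the LL mice (1.37 ± 0.29). Ccng2, which codes for a cyclin linked to arrest, was at 9.35, 7.67, 9.89 and 10.7 CPM in the SL mice and 19.4, 18.8, 26.6 and 16.7 CPM in the LL mice (-1.1 ± 0.21). Neither cyclin gene overlapped between groups. In the growth hormone and IGF list 1 of 18 rose and 3 fell (22.2% called, median 0.08), with Stat5b, which codes for the factor that carries the growth hormone signal, at 63.9 ± 4.96 CPM in SL mice and 86 ± 6.28 CPM in LL mice (-0.43 ± 0.09). Nrg4, which codes for a secreted growth factor and overlaps Fbxo22 on the opposite strand, was at 14.3, 21, 21.1 and 17.7 CPM in the SL mice and 6.75, 5.85, 6.82 and 6.77 CPM in the LL mice (1.5 ± 0.16).

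Basic machinery of the cell gave few calls. edgeR called 0 of 27 cytosolic ribosomal protein genes (0 at an unadjusted p under 0.05, 0 by DESeq2 and 0 by limma-voom) and 0 of 22 nuclear-encoded genes of oxidative phosphorylation (2 unadjusted, 0 by DESeq2 and 0 by limma-voom). It also called 0 of 7 tested mitochondrially encoded transcripts (2 unadjusted, 1 by DESeq2 and 0 by limma-voom), whose median was -0.17 and whose summed level was 31760 to 36390 CPM in SL and 35060 to 41150 CPM in LL. That last count was 1 without a filter, with a stricter filter, with the replicate number as a block, and without LL mouse 4. Of the 7 mitochondrially encoded transcripts 0 had a positive difference. Of 26 proteasome subunit genes 1 fell (3.85% called), Psmd11, at 94.1 ± 6.82 CPM in SL mice and 116 ± 5.4 CPM in LL mice (-0.31 ± 0.07). Psmd11 went against most of its list, whose median was 0.08 with 23 of 26 members positive. Of 20 autophagy genes 1 rose (5% called), Ulk1, which codes for the kinase that starts autophagy, at 182, 197, 148 and 137 CPM in the SL mice and 135, 97.7, 98.8 and 112 CPM in the LL mice (0.58 ± 0.13). The autophagy count was 2 without SL mouse 3, SL mouse 4 or LL mouse 3.

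Zonation markers of hepatocytes were called higher in SL in 3 of 13 periportal and 3 of 14 pericentral cases (23.1% and 21.4%, beside 11% of all tested genes) and lower in 0 of either. The periportal median was -0.04, with 5 of 13 members positive, and the pericentral median 0.11, with 8 of 14 positive. The periportal calls included Sds and Pck1, described above, and the pericentral calls included Cyp1a2. The pericentral count was 1 without LL mouse 1 or LL mouse 4, 6 by DESeq2 or without a filter and 5 with the 8 ZT0 libraries alone. The summed level of the pericentral list was 7359 to 10520 CPM in SL and 5776 to 6476 CPM in LL apart from LL mouse 2, which stood at 9065 CPM.

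Markers of other cells gave few calls. In bulk liver, fewer cells of a type and less RNA per cell cannot be told apart. edgeR called 0 of 12 Kupffer cell and macrophage markers (0 unadjusted, 0 by DESeq2 and 0 by limma-voom), with a summed level of 320.3 to 617 CPM in SL and 369.6 to 563 CPM in LL. It called 0 of 12 stellate cell and fibroblast markers (2 unadjusted, 0 by DESeq2 and 0 by limma-voom), at 269 to 324 CPM in SL and 257 to 314 CPM in LL. The stellate and fibroblast count was 1 without a filter and 2 with the 8 ZT0 libraries alone. Of 12 endothelial markers 2 fell (16.7%, beside 11% of all tested genes). That count was 1 by limma-voom, without a filter, and when any of SL mice 1, 3 and 4 or LL mice 1, 2 and 3 was left out. The called endothelial markers included Stab2, which codes for a scavenger receptor of liver sinusoids, at 95.5, 111, 91.7 and 108 CPM in the SL mice and 130, 135, 144 and 128 CPM in the LL mice (-0.4 ± 0.09). The summed level of the list was 472 to 512 CPM in SL and 506 to 591 CPM in LL. Of 7 cholangiocyte markers tested 1 was called (14.3%), Sox9, which codes for a transcription factor also found in some hepatocytes. It was at 3.85, 2.97, 2.42 and 2.93 CPM in the SL mice and 9.9, 13.2, 10 and 10.4 CPM in the LL mice (-1.83 ± 0.24), while the duct keratin genes Krt7 and Krt19 stood at 0.267 to 1.13 and 0.409 to 1.10 CPM in SL, against 0.527 to 1.17 and 0.878 to 1.39 CPM in LL. The cholangiocyte list had a median of -0.28, with 1 of 7 members positive. Its summed level, Sox9 included, was 53.17 to 57.15 CPM in SL and 57.18 to 74.1 CPM in LL. Skeletal muscle markers were called in 0 of 10 cases by edgeR (0 unadjusted, 0 by DESeq2 and 0 by limma-voom). Defining genes of fat (Adipoq, Cfd, Plin1) stayed under 0.30 CPM, and those of lymphocytes and neutrophils (Cd3e, Cd79a, S100a8, S100a9) under 1.2 CPM, in all 8 libraries.

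**Figure D4:**
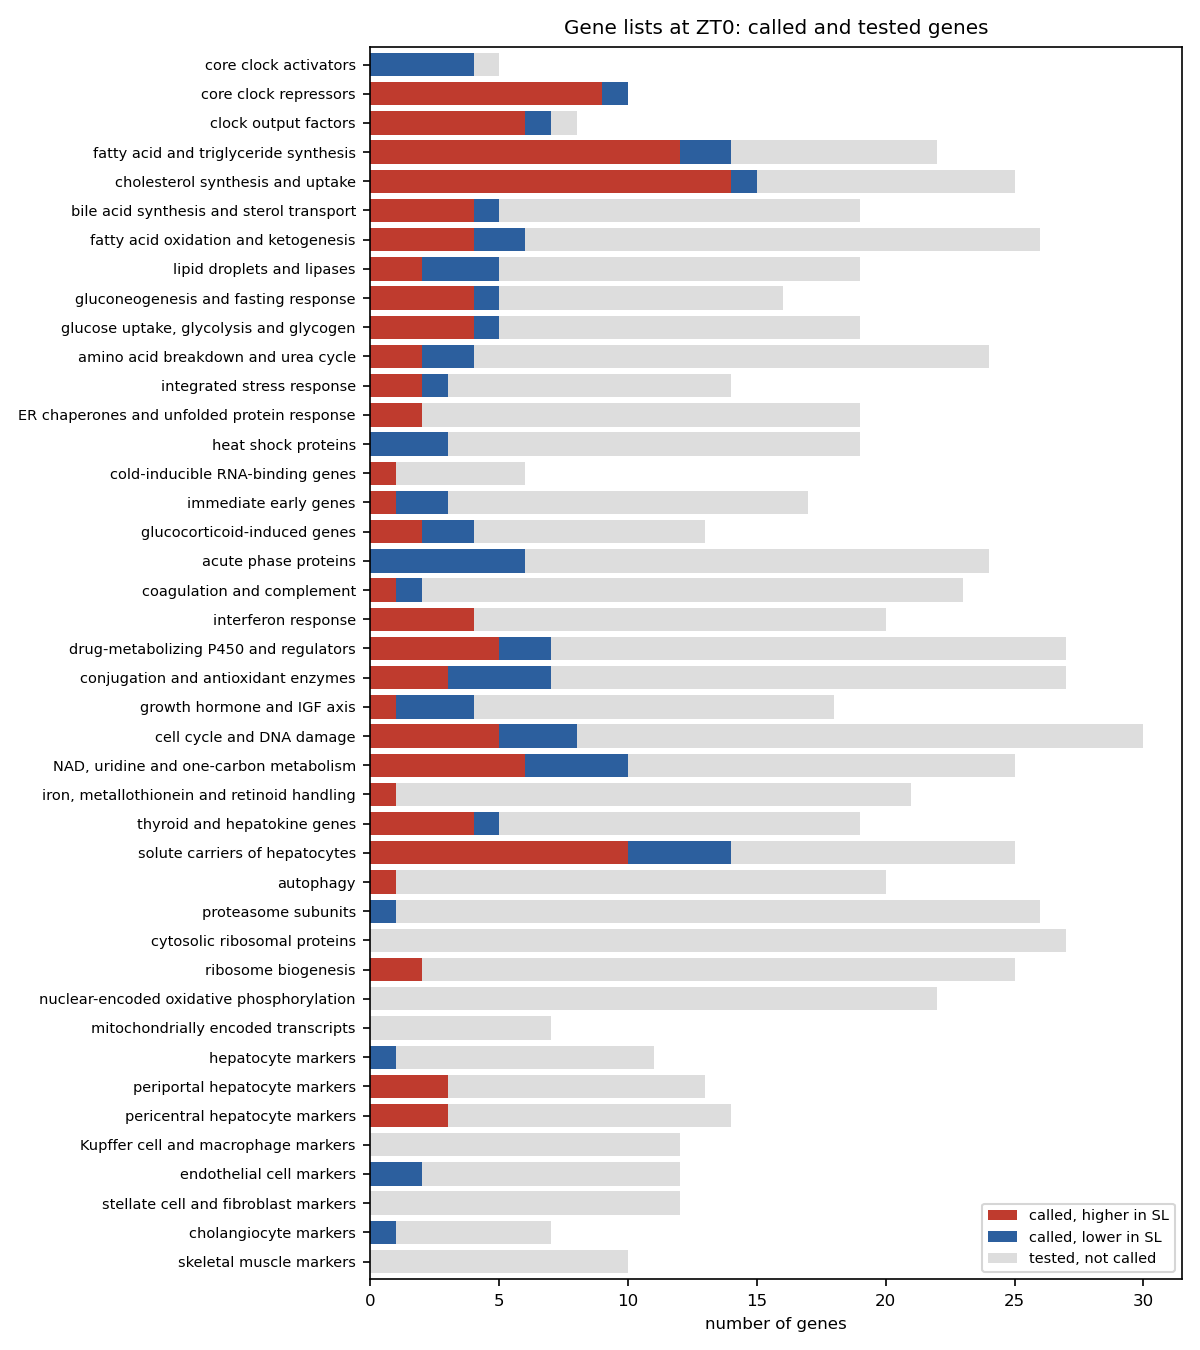
Number of tested genes per list (x axis), divided into those called higher in SL (red), called lower in SL (blue) and not called (grey), for the lists with at least 5 tested genes. Of the clock lists 21 of 23 genes were called, of fatty acid and triglyceride synthesis 14 of 22, of cholesterol synthesis and uptake 15 of 25, and of ribosomal proteins 0 of 27. Of all tested genes 11% were called.

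Promoter motifs were counted over the 10471 tested genes with a promoter window, as a description without a test. An E-box lay in 17.1% of 671 genes that rose in SL and 8.11% of 518 that fell, against 11.5% of all 10471. Among changes over 1 on the log2 scale the E-box shares were 16.2% of 99 that rose and 11.8% of 119 that fell, the last close to that of all genes. A D-box lay in 3.73% of those that rose and 3.67% of those that fell, against 2.78% of all, and in 11 of the 99 genes that rose by more than 1 on the log2 scale (11.1%), beside 4.2% of the 119 large fallers. The ROR and REV-ERB element lay in 2.38% of those that rose and 4.63% of those that fell, against 2.57% of all, and in 0 of the 99 large risers and 5.04% of the 119 large fallers. A sterol regulatory element (TCACNCCAC) lay in 1.94%, 0.772% and 1.49%, in the same order, a cAMP response element (TGACGTCA) in 2.38%, 3.86% and 3.45%, and a heat shock core (GAANNTTC) in 7.45%, 7.92% and 7.12%. All were searched on both strands, and the windows leave out more distant sites.

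A difference at a single ZT cannot tell a shift in timing from a change in level over the day, so the ZT0 difference was set beside the other times, whose mice are different animals. SL minus LL called 2208 genes at ZT6 (15.3% of tested genes), 1799 at ZT12 (12.4%) and 1331 at ZT18 (9.21%). Of the 1596 genes called at ZT0, 861 were also called at ZT12, which is 53.9% of the ZT0 calls and 47.9% of the ZT12 calls, and all 861 had the opposite direction there. DESeq2 found 2 genes called in the same direction at ZT0 and ZT12 and limma-voom 0, and at an unadjusted p under 0.05 by edgeR 26 genes had the same and 1697 the opposite direction. With ZT6 the shared calls were 562 (35.2% and 25.5%), 379 in the same direction and 183 opposite. With ZT18 they were 393 (24.6% and 29.5%), 119 in the same direction and 274 opposite.

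By edgeR, 0 genes were called in the same direction at all 4 ZTs, as by DESeq2 and limma-voom. At an unadjusted p under 0.05 there was 1, Mup16, named for that reason after its values were seen. It codes for a major urinary protein and belongs to a family of near-identical genes that can share reads. Mup16 was higher in SL by 1.63 ± 0.54 at ZT0, 1.27 ± 0.49 at ZT6, 1.11 ± 0.48 at ZT12 and 1.72 ± 0.51 at ZT18, at 16, 12.7, 15.7 and 9.73 CPM in the SL mice and 2.49, 6.15, 6.27 and 2.92 CPM in the LL mice at ZT0. Its ZT0 call (edgeR quasi-likelihood adjusted p = 0.0459) was lost when any mouse but SL mouse 4 was left out (1.43 to 1.88), with the replicate number as a block (1.63, adjusted p = 0.0580) and by limma-voom.

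The difference at ZT0 departed from the mean difference at the other 3 ZTs in 2011 genes (13.9%), 1088 with a more positive value at ZT0 and 923 with a more negative one. The smallest p-values belonged to clock genes and to genes described above. For Ppard the difference of differences was -3.56 ± 0.18 (edgeR quasi-likelihood adjusted p = 1.71e-14), for Tef 2.96 ± 0.16, for Per3 5.41 ± 0.31, for Cry1 -2.76 ± 0.17 and for Dbp 7.67 ± 0.49. It was -4.1 ± 0.26 for Chka, -3.27 ± 0.21 for Clpx, -5.11 ± 0.32 for Arntl and 3.52 ± 0.22 for Nr1d2. In each of these 9 genes it was larger than the ZT0 difference itself, and the mean difference of the other ZTs had the opposite sign.

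SL livers at ZT0 were also set against LL livers at other times, in 3 comparisons that share the 4 SL ZT0 mice. Against LL ZT6, 465 genes were called (3.22%; 250 higher and 215 lower in SL ZT0), and against LL ZT18, 1444 (9.99%; 810 higher and 634 lower). Against LL ZT12 edgeR called 5 genes (0.0346%; 1 higher and 4 lower), with 1679 at an unadjusted p under 0.05. That small count depended on the method and on single mice, and LL ZT12 mouse 3 stood apart from its group. Its mean correlation with its group mates was 0.969, against 0.982 to 0.984 for the other LL ZT12 mice, and without it the count was 13. DESeq2 called 65 genes and limma-voom 4, the count was 0 without SL mouse 1 or LL ZT12 mouse 1, and it was 42 without SL mouse 3 and 30 without LL ZT12 mouse 2. The root mean square distance of group means from SL ZT0, on the log2 scale over all tested genes, was 0.299 for LL ZT6, 0.265 for LL ZT12, 0.401 for LL ZT18 and 0.406 for LL ZT0. The other SL groups lay at 0.353 (ZT6), 0.388 (ZT12) and 0.361 (ZT18).

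Some clock and metabolic genes that were far apart at ZT0 stood closer together between SL ZT0 and LL ZT12, and examples follow. Arntl was at 2.45 ± 0.698 CPM in SL ZT0 and 3.36 ± 1.41 CPM in LL ZT12 (SD, n = 4 each), a log2 difference of -0.42 ± 0.33. Dbp was at 109 ± 22.3 CPM and 95.2 ± 50.8 CPM, in the same order (0.19 ± 0.32), Per3 at 103 ± 12 CPM and 105 ± 16.6 CPM (-0.04 ± 0.23), and Tef at 307 ± 36.2 CPM and 306 ± 24.8 CPM (0.01 ± 0.14). None of these 4 was called. Chka was at 25.4 ± 2.47 CPM in SL ZT0 and 35.1 ± 3.56 CPM in LL ZT12 (-0.47 ± 0.21), Slc38a3 at 2629 ± 292 CPM and 2350 ± 290 CPM (0.16 ± 0.11), and Insig2 at 197 ± 24.8 CPM and 165 ± 35.9 CPM (0.25 ± 0.16), and none was called. Other genes described above stood further apart, though not called. Ppp1r3c was at 66 ± 32.6 CPM in SL ZT0 and 32.7 ± 6.63 CPM in LL ZT12 (1.02 ± 0.24). Por was at 260 ± 11.7 CPM and 424 ± 51.2 CPM (-0.71 ± 0.17), and Nmrk1 at 22.6 ± 5.07 CPM and 36 ± 6.21 CPM (-0.68 ± 0.16). A p that misses the threshold does not show that levels were equal, and the SE of these differences, 0.11 to 0.33, sets how small a difference could be seen.

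Of the genes called against LL ZT12, 4 are named because the calls are so few, after their values were seen, and the count of 0 without SL mouse 1 or LL ZT12 mouse 1 applies to each. Lingo4 was at 1.71 ± 0.151 CPM in SL ZT0 and 3.89 ± 1.03 CPM in LL ZT12, a difference of -1.17 ± 0.20 (edgeR quasi-likelihood adjusted p = 0.0154), and Nr1i2, which codes for the drug-sensing receptor PXR, differed by -0.52 ± 0.09. Eepd1 was higher in SL ZT0 by 0.86 ± 0.15, at 36.9 ± 9.05 CPM, against 20.2 ± 3.79 CPM in LL ZT12. Gm16573, an antisense locus inside Parp4 on the opposite strand, differed by -0.81 ± 0.14, and its reads are uncertain. Cry1, at 8.74 ± 1.47 CPM in SL ZT0 and 14.4 ± 3.25 CPM in LL ZT12, was not called (-0.7 ± 0.15, edgeR quasi-likelihood adjusted p = 0.0631). Bhlhe41 was not called either, at 5.99 ± 3.82 CPM in SL ZT0 and 1.71 ± 0.76 CPM in LL ZT12 (1.78 ± 0.37, edgeR quasi-likelihood adjusted p = 0.0616).

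**Figure D5:**
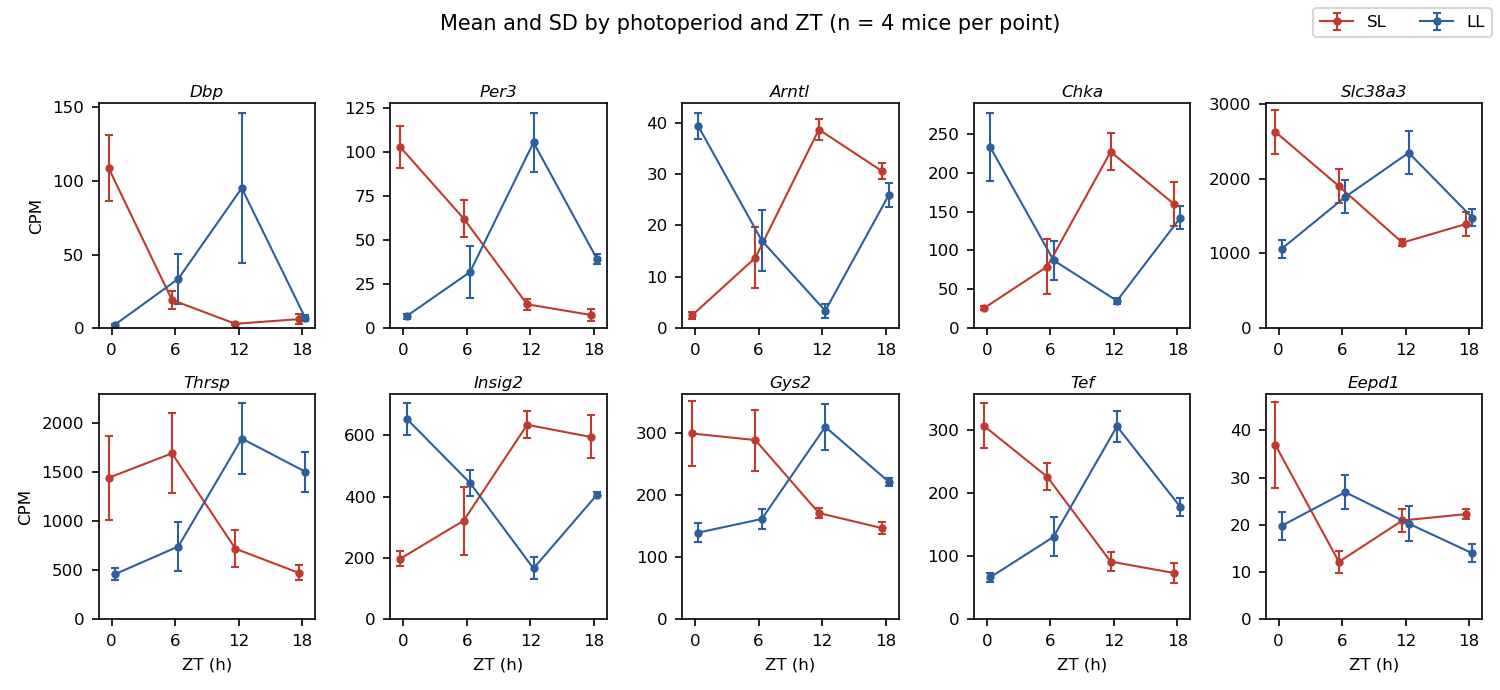
Mean level with SD (CPM, y axis from 0) of 10 genes at ZT0, ZT6, ZT12 and ZT18 (x axis, hours) in SL (red) and LL (blue), 4 mice per point. For Dbp, Per3, Tef, Arntl, Chka, Slc38a3 and Insig2 the SL point at ZT0 lies near the LL point at ZT12, while Eepd1 (36.9 CPM against 20.2 CPM) differs there.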

How the data were processed

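Polyadenylated liver RNA was sequenced from 32 mice with a stranded kit, per the labels' protocols, and every library was grouped by the photoperiod and ZT in its own labels. The submitters' processing notes name GRCm38 (mm10) and, as tools, featureCounts 1.6.2, STAR 2.7.2b and bcl2fastq 2.20.0. No source used here gives the annotation, the strand setting or the treatment of reads with several matches. The authors deposited raw read counts for 55471 genes, of which 32791 had a read. The authors also deposited log2 values for 13432 genes, used here only as an alternative.

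Library sizes were adjusted by TMM (trimmed mean of M values). The 14456 genes kept by filterByExpr were tested in edgeR 4.0.16 (R 4.3.3) with quasi-likelihood F-tests in a single fit of 8 group means over 32 libraries, so all comparisons share 1 estimate of the spread. Benjamini-Hochberg adjusted p under 0.05 was the threshold. CPM values are scaled counts without a prior count. Gene names and bounds came from GENCODE M21, which holds 14445 of the tested genes, and promoters from RefSeq.

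The members and the 47 gene lists were chosen with earlier results of these data known. By rule, the text names the 15 largest rises and falls with a mean of at least 1 CPM, the clock genes, up to 4 called members per list with the smallest p, the 10 smallest p outside the lists and for the difference from other ZTs, and the 8 most abundant called genes. Some genes that the rule allows are not reported here.

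Alternatives were DESeq2 1.42.0, its size factors, limma-voom (limma 3.58.1), limma on the authors' log2 values, scaling without mitochondrial and the top 20 genes, no filter, a stricter filter (at least 1 CPM in 4 of the 8 ZT0 libraries), and the 8 ZT0 libraries alone. A block for the replicate number was also tried, as was leaving out 1 library at a time. For the ZT0 comparison the fit was checked on simulated counts of 14456 genes. It recovered 72 of 100 genes changed by 1 on the log2 scale and 44 of 100 changed by 0.5, and called 7 unchanged genes. Far fewer genes were changed there than were called in the data. The counts were drawn with the spread estimated by the fit, and no mouse was set apart. These rates therefore need not hold for the data.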

Additional observations from a re-analysis of the deposited data

Results flagged for a closer look

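A mouse was marked where its gap to the nearest group mate was too large for a group of 4 by Dixon's test at 95%, which chance alone does in about 1 group in 20. Of 246 groups of 4 values examined, 16 were marked.

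LL mouse 2 was marked most often. It stood at 1640 CPM of Uox, against 2150 to 2190 CPM in the other LL mice. It held 5.85 CPM of Nrg4 where the others held 6.75 to 6.82 CPM, and 50.5 CPM of Slc45a3 where they held 63.3 to 63.5 CPM. It was highest in Slc7a2, at 486 CPM, against 302 to 332 CPM, in Lbp, at 167 CPM, against 102 to 110 CPM, and in Sox9, at 13.2 CPM, against 9.90 to 10.4 CPM. This was also the mouse with the most muscle transcripts. Of the other LL mice, mouse 3 was low in Per2, at 27.8 CPM, against 36.9 to 38.0 CPM, and high in Lpin2, at 237 CPM, against 151 to 158 CPM. Mouse 1 was low in Tef, at 56.0 CPM, against 68.8 to 70.8 CPM, and in Gm16573, at 14.6 CPM, against 17.6 to 18.1 CPM.

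SL mouse 2 was high in Rgs16, at 447 CPM, against 111 to 134 CPM in the other SL mice, and in Pfkfb3, at 37.1 CPM, against 11.4 to 15.6 CPM. It was low in Ddit4, at 4.19 CPM, against 6.52 to 6.96 CPM. SL mouse 3 was low in Azin2, at 3.15 CPM, against 4.44 to 4.70 CPM, and high in Hspa4l, at 19.3 CPM, against 12.5 to 13.4 CPM. SL mouse 4 was low in Asap2, at 4.06 CPM, against 5.61 to 5.79 CPM.

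The other marked results are differences between times of day, tested as the ZT0 difference minus the mean difference of ZT6, ZT12 and ZT18. By edgeR's quasi-likelihood test 2011 genes passed. The log2 difference of differences was -3.56 for Ppard, 2.96 for Tef, 5.41 for Per3, -2.76 for Cry1, -4.10 for Chka, 3.52 for Nr1d2, -5.11 for Arntl, -3.27 for Clpx and 7.67 for Dbp.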

How the results depend on the processing

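The count of 1596 genes at ZT0 stayed between 1283 (no filter on low counts) and 1689 (DESeq2) under the 9 other settings, and the counts at the other ZTs and of the difference from them stayed within 1.5 times. Leaving out single libraries gave 1120 to 1449 genes at ZT0 (622 to 779 higher and 498 to 670 lower in SL), 1641 to 1995 at ZT6, 1316 to 2353 at ZT12, 979 to 1195 at ZT18, and 1589 to 2574 for the difference of ZT0 from the other ZTs. SL ZT0 against LL ZT6 gave 318 to 434 and against LL ZT18 944 to 1374, with 944 without SL ZT0 mouse 1. The 5 genes against LL ZT12 were least stable, at 65 by DESeq2, 9 on the authors' log2 values, 52 without a filter, 13 with a stricter filter, and 0 to 42 with single libraries left out; the cause was not tested. Same-numbered SL and LL mice correlated at -0.13 to 0.11, and 1 of 4 SL mice correlated best with its own replicate number. So few values cannot show whether the replicate numbers pair the mice. With the number as a block 1593 genes were called at ZT0, 1958 for the difference from other ZTs and 8 against LL ZT12. No named gene reversed. Low counts limit what can be seen, most in the 3614 genes with the lowest levels, where the median SE was 0.35.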

Other observations

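The share called at ZT0 differed between classes of transcript, with no test of these differences. Of 353 long intergenic non-coding RNAs tested, 48 were called (13.6%), 18 higher and 30 lower in SL, beside 1456 of 12549 protein-coding genes (11.6%), 816 higher and 640 lower. Antisense loci were called in 36 of 397 cases (9.07%), where reads of the partner gene cannot be told apart without the strand setting, and processed pseudogenes in 15 of 456 (3.29%). Other non-coding classes had processed transcripts called in 8 of 196 cases (4.08%), bidirectional promoter RNAs in 2 of 56 (3.57%) and sense intronic RNAs in 2 of 29 (6.9%). AC157910.3, picked out after its values were seen, is an unnamed locus whose annotated bounds overlap the gene of the liver microRNA miR-122 on the same strand. It was at 13.4, 9, 19.3 and 16.9 CPM in the SL mice and 39.6, 70.4, 42.3 and 55.4 CPM in the LL mice (-1.83 ± 0.27, edgeR quasi-likelihood adjusted p = 1.66e-05), with no overlap between groups. The libraries count the polyadenylated transcript and not the mature microRNA, which was not measured.

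Most of what differed at ZT0 lay outside the gene lists. Of the 1596 called genes, 1430 were in none of the 47 lists. Among the abundant ones, Uox, which codes for the urate oxidase that mice use to break down uric acid, was at 3035, 3240, 2623 and 2360 CPM in the SL mice and 2171, 1640, 2147 and 2187 CPM in the LL mice (0.47 ± 0.11), and it overlaps Dnase2b on the opposite strand.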
